A study of Mus musculus with 11 samples.

Results

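Spermatogonia of 8-month-old male mice were compared between a fraction with the receptor KIT on the cell surface (KIT+) and a fraction without it (KIT-). The comparison was formed from the labels alone and rests on 3 of the 11 RNA-Seq libraries of the study, 1 from KIT+ and 2 from KIT- cells. All mice carried the transgene B6;CBA-Tg(Pou5f1-EGFP)2Mnn/J, in which regulatory sequence of *Oct4* (*Pou5f1*) drives green fluorescent protein, and only Oct4-GFP+ cells were sorted, so both fractions share this gate. No treatment is given in the labels. The same fractions were taken at 6 days and at 15 months, with 2 libraries per fraction, and these 8 libraries served as a second look at the genes and as the source of the spread in the tests. The labels give 8 months for the 3 libraries, whereas the study's text places its young adults at 6 months or at 6 to 8 months. Sorting followed a Percoll step and took many cells per fraction, so a library is an average over them, and the number of animals behind it was not stated. The study describes 2 independent sorts per fraction, and 1 of the 8-month KIT+ fraction was analysed here, so the spread within that fraction is unknown.

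KIT is a receptor tyrosine kinase whose ligand is made by Sertoli cells, the somatic cells that nurse the germ line. Undifferentiated spermatogonia, which include the stem cells, lack KIT and depend on GDNF, a growth factor read by the receptors *Gfra1* and *Ret*. Retinoic acid drives them to differentiate, and KIT appears on the surface as they do so. The KIT+ cells then divide several times before meiosis.

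The 3 libraries held 12238327 and 16627837 reads on genes in KIT- and 13815099 in KIT+ cells, against 25371502 to 76756536 in the other 8, so low values are less exact at 8 months than at the other ages. For a transcript with 1 kb of exon, 3 reads were worth 0.245, 0.180 and 0.217 RPKM in the 2 KIT- and the KIT+ library. Mitochondrial genes took 20.01% of the reads in KIT+ and 22.7% and 25.8% in KIT- cells. Most of this was the mitochondrial rRNA gene *mt-Rnr2*, with 16.7% in KIT+ and 18.1% and 21.5% in KIT- cells. Levels are given as RPKM, read counts per kb of exon, scaled to each library’s total of reads on genes, with the KIT- libraries in the order of their numbers. The labels were checked against the gene of the sorted protein. *Kit* (chr5:75970941-76052747 in mm9) read 5.63 and 6.47 RPKM in KIT- and 81.3 RPKM in KIT+ cells, 12.6 times the nearer KIT- library. *Stra8*, a gene switched on by retinoic acid, read 15.5 RPKM in each KIT- library and 90.1 RPKM in KIT+ cells. *Kit* was what the cells were sorted on, so its difference is a check of the sort and no finding.

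Genes were ordered by their gap, the difference in log2(RPKM + 1) between the KIT+ library and the nearer KIT- library. Of 18412 genes with at least 10 reads in at least 2 of the 11 libraries, KIT+ lay above both KIT- libraries for 7157 (38.9%) and below both for 8270 (44.9%). With 1 library against 2, such an order is common and says little about a single gene. A gap of at least 1, a doubling of RPKM + 1, was reached by 527 genes (2.86%) with KIT+ on top and by 856 (4.65%) with KIT+ at the bottom. In a limma fit over all 11 libraries, which gave the lone KIT+ library the spread seen in the other groups, 1289 genes (7%) were called with more in KIT+ and 1261 (6.85%) with more in KIT- cells at a false discovery rate (FDR) of 5% and a 1.5-fold change. Scaled to reads outside the mitochondrial genome the split was 1049 against 1544, and with voom on the recovered reads it was 789 against 461. The 3 libraries tested alone gave 0 calls in limma, where 3078 genes toward KIT+ and 3191 toward KIT- cells had p-values up to 0.05 before adjustment. Without KIT- replicate 1 the calls fell to 496 and 484, and without replicate 2 to 619 and 785. On simulated data the share of false calls at 8 months was above the nominal FDR and changes of 2-fold were seldom recovered, so single calls and counts of calls are less certain than their FDR.

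**Figure D1:**
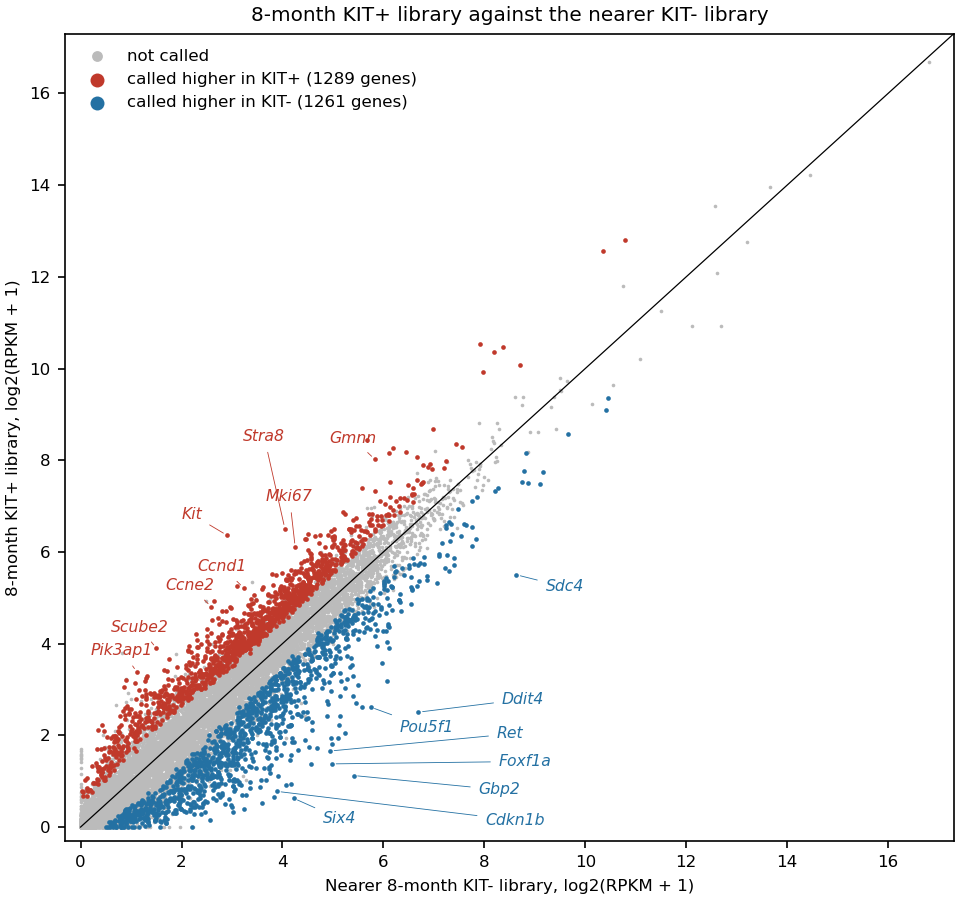
Level of each tested gene in the 8-month KIT+ library (y axis) against the nearer 8-month KIT- library (x axis), both as log2(RPKM + 1). Red points are the 1289 genes called higher in KIT+, blue points the 1261 called lower there and grey points the rest. The line marks equal levels, and the blue points reach farther from it than the red.

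The 20 genes with the largest gap toward KIT+ held growth signalling, cell cycle and differentiation genes, and their gaps ran from 1.85 to 3.46. Behind *Kit*, the leading gene was *Scube2* (chr7:116942204-117009193, minus strand, mm9), a secreted protein that helps to release lipid-bound hedgehog ligands. It read 1.83 and 1.43 RPKM in KIT- and 13.9 RPKM in KIT+ cells (log2 fold change 2.51 ± 0.22 SE, adjusted p = 0.00099). The cell cycle was represented at several steps. *Ccne2*, a cyclin of the entry into S phase, read 5.003 and 4.92 RPKM against 27.01 RPKM in KIT+ cells (2.23 ± 0.24). *Ccnd1*, the cyclin D1 gene, rose from 8.37 and 6.74 RPKM to 36.2 RPKM (2.13 ± 0.16). *Gmnn*, which encodes the replication licensing inhibitor geminin, stood at 51.6 and 55.7 RPKM in KIT- and at 259 RPKM in KIT+ cells. *Mki67*, the proliferation marker, and the histone gene *Hist1h2bj* were also among the 20. *Mki67* read 15.3 and 18.1 RPKM against 67.7 RPKM, 3.75 times the nearer KIT- library.

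Signalling genes made up another share of the 20. *Pik3ap1*, an adaptor that brings PI3-kinase to receptors, read 1.15 and 1.17 RPKM in KIT- and 9.42 RPKM in KIT+ cells, 8.08 times the nearer KIT- library. *Gatsl3*, the arginine sensor that acts on the kinase complex mTORC1, read 1.51 and 1.34 RPKM against 8.74 RPKM. *Rps6ka6*, a ribosomal S6 kinase, read 4.89 and 5.10 RPKM against 21.9 RPKM. The sorting receptor *Sorl1* and the heparan sulfate sulfotransferase *Hs6st2* lay 5.93 and 5.71 times above the nearer KIT- library. *Doc2a*, a calcium sensor of vesicle release, was low in KIT- cells at 0.670 and 0.815 RPKM and read 7.36 RPKM in KIT+ cells. *Dmrtb1*, a transcription factor needed for the passage from mitosis to meiosis, read 1.10 and 0.953 RPKM against 7.78 RPKM. *Gm12260*, a 411-base pseudogene at 1772 and 1537 RPKM in KIT- against 7125 RPKM in KIT+ cells, is uncertain because reads of its parent gene or of other copies could have been placed on it. Of the 20 genes, 19 were called. The exception was the septin gene *Sept5*, at 2.64 and 2.70 RPKM against 12.7 RPKM (adjusted p = 0.062). The libraries that ranked the genes also gave the fold changes behind the calls. The calls and adjusted p-values of this list are therefore favoured by the choice.

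The 20 genes with the largest gap toward KIT- had wider gaps, from 2.90 to 4.28, and all 20 were called. The first was *Gbp2* (chr3:142283566-142300972, mm9), a guanylate-binding protein gene known as an interferon target. It read 46.7 and 41.5 RPKM against 1.18 RPKM, 35.2 times lower than the nearer KIT- library (log2 fold change -4.37 ± 0.32, adjusted p = 0.00073). *Ddit4* (chr10:59412423-59414518, minus strand, mm9), which encodes an inhibitor of mTORC1, followed at 152 and 103 RPKM against 4.68 RPKM. *Rragd*, a GTPase that ties mTORC1 to amino acids at the lysosome, read 47.4 and 47.0 RPKM against 5.14 RPKM. *Cdkn1b*, an inhibitor of cyclin-dependent kinases, read 13.8 and 16.2 RPKM against 0.716 RPKM, a 19.3-fold distance to the nearer library. These genes were picked for a wide gap, so KIT+ values far from those of the KIT- libraries follow from the choice. The calls and adjusted p-values of this list are favoured by the choice as well, because their fold changes came from the libraries that ranked the genes.

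Transcription factors and receptors filled much of the KIT- list. The forkhead gene *Foxf1a* read 35.7 and 30.6 RPKM against 1.599 RPKM, and the homeobox gene *Six4* 18.5 and 17.7 RPKM against 0.545 RPKM. *Nab2*, a corepressor of EGR factors, and the zinc finger gene *Zfp462* lay 11.6 and 9.19 times below the nearer KIT- library. *Ptch1*, the hedgehog receptor and itself a target of the pathway, fell from 32.5 and 30.6 RPKM to 2.51 RPKM. The GDNF receptor kinase *Ret*, the germ cell RNA-binding gene *Nanos3* and *Pou5f1* were in the list as well, at 13.8, 17.7 and 10.3 times below the nearer KIT- library. *Pou5f1* read 68.7 and 52.6 RPKM in KIT- and 5.13 RPKM in KIT+ cells, although both fractions were sorted for GFP driven by its regulatory sequence. *Sdc4*, a cell surface proteoglycan, was the most abundant of the 20, at 474 and 396 RPKM against 44.3 RPKM. *Igfbp6* (an IGF-binding protein), *Fgd5* (an exchange factor for CDC42), *Rin2* (an exchange factor for RAB5), *Pygl* (glycogen phosphorylase) and the glycosyltransferase *Gyltl1b* were 10.7 to 18.5 times lower in KIT+ than in the nearer KIT- library. *Ighm*, an immunoglobulin heavy chain gene, read 16.1 and 13.2 RPKM against 0.582 RPKM. In bulk RNA, fewer cells that hold a transcript and less of it per cell cannot be told apart.

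**Figure D2:**
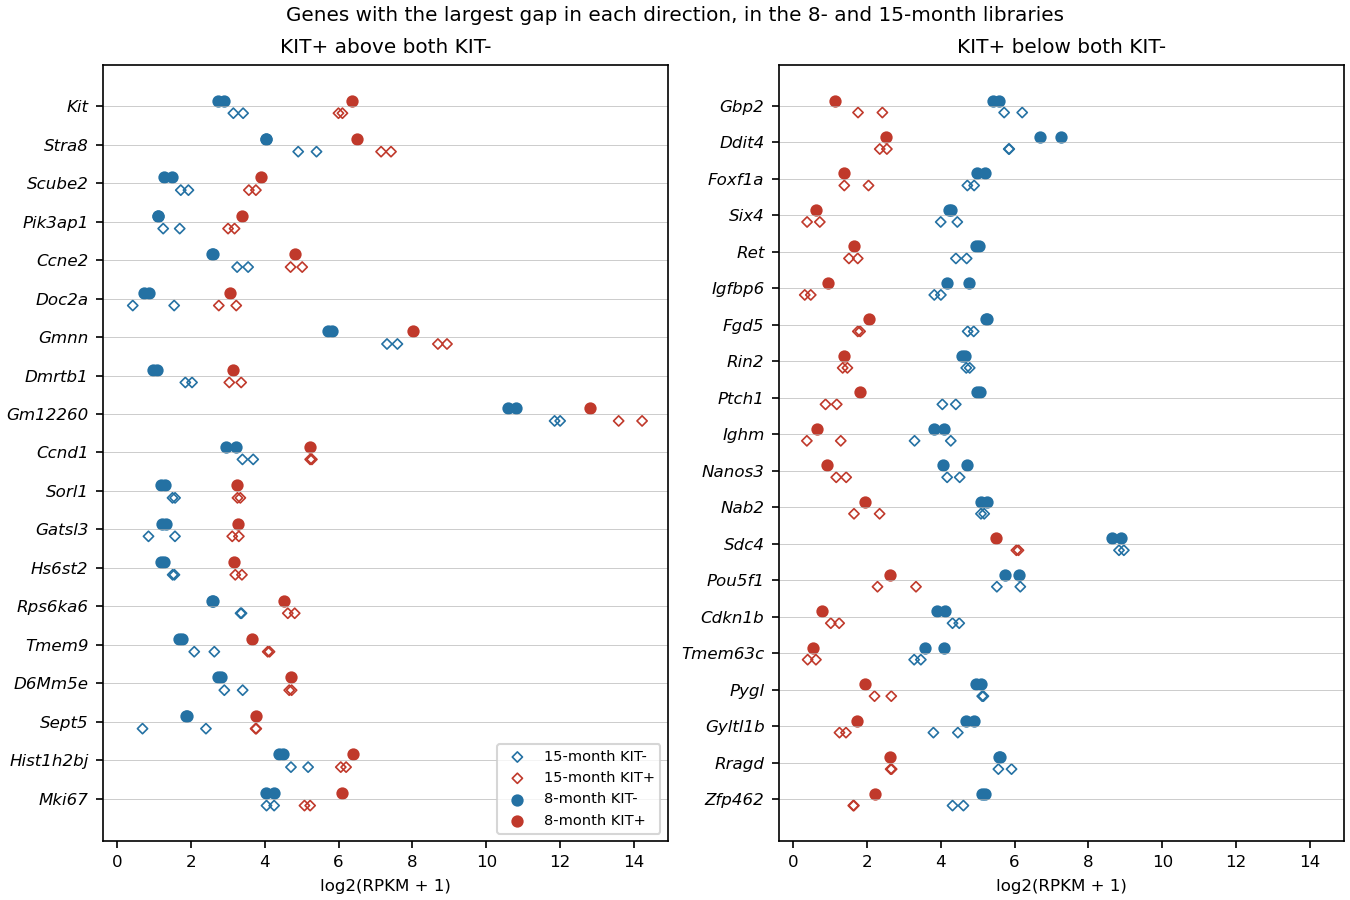
Level, as log2(RPKM + 1) on the x axes, of 19 of the 20 genes with the largest gap toward KIT+ (left) and of the 20 toward KIT- cells (right). Blue is KIT- and red KIT+, with filled circles for the 3 libraries of 8 months and open diamonds for the 4 of 15 months, which played no part in the choice and lie on the same sides in all 39 genes.

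The 8 libraries of the other ages gave values that the ranking had not used. At 15 months, 96 of the 100 leading KIT+ genes had both KIT+ libraries above both KIT- libraries, where 25.6% of all tested genes did. Of the 100 leading KIT- genes, 99 lay the other way round, against 30.9% of all genes. The leading genes had to have at least 200 bp of exon and 1 RPKM in 1 of the 3 libraries of 8 months. The shares over all tested genes, here and at 6 days, are of a wider set without these limits. No gene of either set was reversed at 15 months. With any library of any age left out, or another pseudocount, filter or scaling, these numbers were 93 to 100 and 86 to 100. Called at 15 months were 92 of the KIT+ and 98 of the KIT- genes, where the background was 6.75% and 11.6%. The 4 KIT+ genes that did not separate at 15 months were *Prss50*, *Hist1h2bk*, *Trank1* and *Prr11*, and the KIT- gene was *AY036118*. *AY036118* read 24.4 and 20.7 RPKM against 4.36 RPKM at 8 months and between 39.6 and 700 RPKM at 15 months, with the fractions mixed.

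At 6 days the same genes differed less. Both KIT+ libraries lay above both KIT- libraries for 81 of the 100 leading KIT+ genes, against 21.6% of all genes, and below for 81 of the 100 KIT- genes, against 20.3%. Few genes were called at 6 days, 3 higher (0.0163%) and 5 lower (0.0272%) in KIT+ cells among all tested genes. The KIT+ set held 3 of the higher and the KIT- set 3 of the lower ones. The median log2 fold change of the KIT+ set was 1.74 at 8 months, 1.37 at 15 months and 0.51 at 6 days, and that of the KIT- set was -2.47, -2.42 and -0.62. Because the genes were picked for their gap at 8 months, a larger median there than at another age is favoured by the choice. The difference between the effects was tested for each gene in the same fit. Against 6 days, 218 of all tested genes (1.18%) passed an FDR of 5%, 23 of them in the KIT+ and 55 in the KIT- set. The test reused the 8-month values that picked the sets, so the counts within them are favoured by the choice as well. Against 15 months, 18 genes (0.0978%) passed, while for 1849 genes the p before adjustment did not exceed 0.05. None of the 18 belonged to either set, but only 3 of them met the limits of exon length and level for entering a set. Simulated data gave false calls of this kind too. A p that misses the threshold does not show that the effects at 8 and 15 months are equal. The 218 fell to 0 without any single library of 6 days or of 8-month KIT- cells and to 9 without either 15-month KIT+ library.

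**Figure D3:**
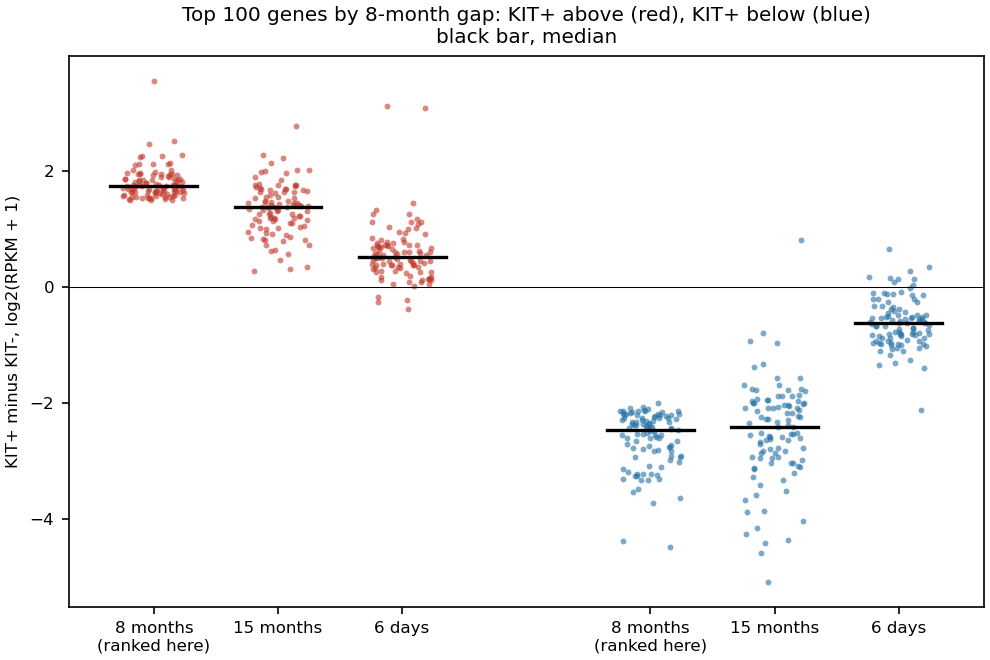
Log2 fold change (KIT+ minus KIT-, log2(RPKM + 1)) on the y axis at 8 months, 15 months and 6 days for the 100 genes with the largest gap toward KIT+ (red) and toward KIT- cells (blue), 1 point per gene and black bars for medians. The medians are 1.74 and -2.47 at 8 months, 1.37 and -2.42 at 15 months and, nearer to 0, 0.51 and -0.62 at 6 days.

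Genes of undifferentiated spermatogonia were lower in KIT+ cells. Of 43 tested, 24 were called lower and 0 higher, with a median log2 fold change of -1.34 against -0.03 over all tested genes. Without KIT- replicate 1 or 2, 16 and 17 were called lower. Parts of the self-renewal network of GDNF were among them. *Etv5*, a transcription factor induced by GDNF, read 6.53 and 5.39 RPKM in KIT- and 1.16 RPKM in KIT+ cells, and *Gfra1* read 5.95 and 6.03 RPKM against 1.63 RPKM. *Zbtb16*, a repressor that keeps the stem cell pool, stayed at 39.1 RPKM in KIT+ cells against 132 and 141 RPKM. *Lin28a* likewise remained abundant at 57.3 RPKM against 175 and 167 RPKM. *Id4*, a marker of the stem cells, read 3.15 and 4.64 RPKM against 0.785 RPKM. *Nanos2*, which holds cells in the stem cell state, had 43 and 26 reads in KIT- and 0 in KIT+ cells, at least 7.20-fold lower when 3 reads are taken as the floor. *Tspan8*, a tetraspanin, and *Glis3* lay 11.2 and 9.96 times below the nearer KIT- library. At 15 months 27 of the 43 were called lower and the median was -0.97. The members of this and the later gene groups were chosen with earlier results of these data known, so their counts are no independent evidence. The counts at 8 months stand beside 7% called higher and 6.85% called lower over all tested genes.

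Genes of differentiating spermatogonia moved the other way, with 12 of 31 called higher and 1 lower at a median of 0.67. The 12 include *Kit*, on which the cells were sorted and which is no finding. Without KIT- replicate 1 or 2, 10 were called higher each time. *Nr6a1*, a nuclear receptor, read 8.62 and 7.99 RPKM in KIT- and 19.4 RPKM in KIT+ cells. *Sohlh2*, a helix-loop-helix factor that acts on *Kit*, read 40.1 and 38.4 RPKM against 85.5 RPKM. Its partner *Sohlh1* was the member that was lower, at 55.1 and 47.2 RPKM against 20.9 RPKM (-1.24 ± 0.28, adjusted p = 0.023), and the call was lost without either KIT- library. At 15 months *Sohlh1* overlapped between the fractions at 25.9 and 38.0 RPKM in KIT- and 30.1 and 23.7 RPKM in KIT+ cells. *Dnmt3b*, a de novo DNA methyltransferase, and *Uhrf1*, which guides maintenance methylation, were 1.86 and 2.06 times the nearer KIT- library. *Lin28b*, the relative of *Lin28a*, read 6.95 and 6.34 RPKM against 14.4 RPKM, so the pair ran in opposite directions. Of 26 genes of retinoic acid handling, 3 were called higher and 1 lower, where 7% and 6.85% of all tested genes were. The retinoic acid degrading enzyme *Cyp26b1* read 0.337 and 0.601 RPKM against 2.94 RPKM, and the receptor gene *Rarb* 0.397 and 0.457 RPKM against 1.82 RPKM. The receptor *Rarg* was the lower gene, at 14.8 and 14.9 RPKM against 7.77 RPKM, and *Rara* read 10.6 and 10.1 RPKM against 7.80 RPKM without a call.

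The cell cycle genes were the largest group with higher levels in KIT+ cells. Of 53 DNA replication genes, 25 were called higher and 1 lower (median 0.70), and of 53 mitosis genes 28 were higher and 2 lower (median 0.73). Without KIT- replicate 1 or 2 the higher calls numbered 18 and 19 for replication and 16 and 17 for mitosis. *Top2a*, the topoisomerase that untangles sister chromatids, read 45.3 and 46.5 RPKM in KIT- and 167 RPKM in KIT+ cells (1.84 ± 0.12, adjusted p = 0.00041). *Plk1*, a mitotic kinase, read 9.75 and 9.61 RPKM against 32.3 RPKM, and the spindle protein *Tpx2* 13.2 and 13.6 RPKM against 44.4 RPKM. In replication, *Rrm2* of ribonucleotide reductase read 3.98 and 3.08 RPKM against 14.1 RPKM. The helicase subunits *Mcm2* and *Mcm6* were 2.47 and 2.22 times the nearer KIT- library, and *Pcna*, the sliding clamp, was 2.26 times. The lower genes were *Gins4* in replication and *Bub3* and *Cdca8* in mitosis, and none of these was called at 15 months. Among the cyclins, CDK inhibitors and E2F factors, 7 of 29 were higher (3 without either KIT- library) and 2 lower. Here *Ccne1* rose from 2.52 and 3.23 RPKM to 10.6 RPKM and *E2f2* from 0.770 and 0.665 RPKM to 2.98 RPKM, while the inhibitor *Cdkn1c* fell from 15.0 and 14.8 RPKM to 5.59 RPKM.

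Many promoters of such genes are known to hold short elements for cell cycle control, the CHR (TTTGAA) with CCAAT boxes in mitotic genes and E2F sites in replication genes. The 250 bases before the start of 3 called genes are shown because the groups they belong to moved together, with these elements in capitals in either orientation. They were picked as windows with several matches out of 5 that were looked at, and *Plk1*, with a single CCAAT box, and *Cdc6*, with a single E2F match, are not printed. The windows come from RefSeq on GRCm38.p6, a later build than the mm9 of the files, and all 3 lie on the minus strand. They span chr7:135716380-135716629 for *Mki67*, chr11:99024190-99024439 for *Top2a* and chr1:128359706-128359955 for *Mcm6*.
Mki67: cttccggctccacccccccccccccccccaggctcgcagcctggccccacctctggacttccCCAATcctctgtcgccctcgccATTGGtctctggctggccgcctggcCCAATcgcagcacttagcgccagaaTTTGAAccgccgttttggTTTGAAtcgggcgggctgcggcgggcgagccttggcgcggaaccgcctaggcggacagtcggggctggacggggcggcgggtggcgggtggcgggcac
Top2a: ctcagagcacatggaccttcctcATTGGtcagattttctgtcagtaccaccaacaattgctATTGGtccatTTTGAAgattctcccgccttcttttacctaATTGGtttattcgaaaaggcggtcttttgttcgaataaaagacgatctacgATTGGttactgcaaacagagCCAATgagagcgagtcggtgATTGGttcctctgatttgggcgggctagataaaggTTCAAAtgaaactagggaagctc
Mcm6: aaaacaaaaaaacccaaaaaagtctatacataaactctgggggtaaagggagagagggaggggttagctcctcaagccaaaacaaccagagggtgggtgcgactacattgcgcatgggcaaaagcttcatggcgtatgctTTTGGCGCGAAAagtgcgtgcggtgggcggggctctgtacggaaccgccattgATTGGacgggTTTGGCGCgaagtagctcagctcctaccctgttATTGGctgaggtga
*Mki67* held 2 CHR elements and 3 CCAAT boxes, *Top2a* 2 CHR elements and 6 CCAAT boxes, and *Mcm6* 3 E2F matches, of which 2 overlap, and 2 CCAAT boxes. A CHR match was found in 17 of the 43 mitosis genes with a window (39.5%) in 18.3% of the 27025 windows of all genes and in 13.1% of the 11583 tested genes with a window. A CCAAT box was found in 72.1% of the mitosis genes, 56.8% of 44 replication genes, 37.5% of all and 40.1% of the tested genes. The E2F letters searched were TTTCCCGC, TTTCGCGC, TTTGCCGC and TTTGGCGC on both strands, and they were present in 20.5% of the replication genes, 4.65% of the mitosis genes, 2.16% of all and 3.49% of the tested genes. Within the groups the called genes did not stand out by their matches. The CHR was present in 34.8% of the called mitosis genes and in 45.0% of the others, and the E2F letters in 23.8% and 17.4% of the replication genes. A match describes the letters and does not show a working site.

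Histone and meiosis genes followed with fewer calls. Of 58 replication-dependent histone genes, 11 were higher and 2 lower in KIT+ cells, with a median of 0.62. The higher calls were 5 and 7 without KIT- replicate 1 or 2, and 5 with voom. The H2B gene *Hist3h2ba* read 86.7 and 85.1 RPKM against 289 RPKM. Such mRNAs end without a poly(A) tail and are kept by rRNA depletion, and reads of near-identical copies could have been split between them. Of 42 meiosis genes, 12 were higher and 2 lower (median 0.31), and 5 were called higher without either KIT- library. *Smc1b*, a cohesin subunit of meiosis, read 54.3 and 56.0 RPKM in KIT- and 159 RPKM in KIT+ cells. *Tex11*, a crossover protein, and *Tex15*, known for meiotic recombination and for silencing of transposons, were 2.50 and 2.32 times the nearer KIT- library. *Mnd1*, which acts in strand invasion, was lower at 15.1 and 16.2 RPKM against 4.14 RPKM, and so was the cohesin gene *Rad21l*. Both KIT- libraries also held more transcripts of later germ cells than KIT+, and their part in the 2 lower genes was not tested.

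**Figure D4:**
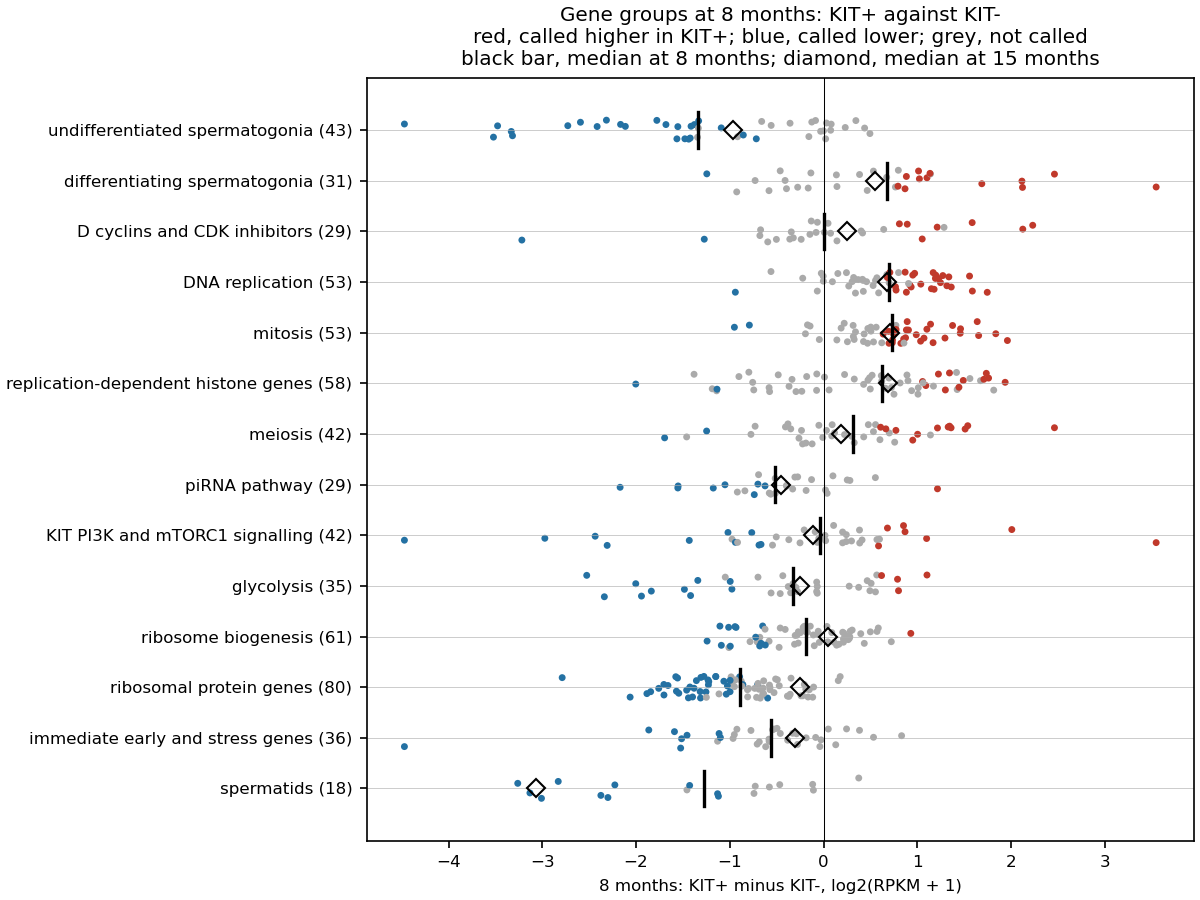
Log2 fold change (KIT+ minus KIT-, log2(RPKM + 1)) of each tested member of 14 gene groups at 8 months, 1 point per gene. Red points were called higher and blue points lower in KIT+ cells, grey points were not called, black bars are medians at 8 months and diamonds medians at 15 months. Undifferentiated spermatogonia genes lie to the left (median -1.34), replication and mitosis genes to the right (0.70 and 0.73), and the medians of ribosomal protein genes are -0.89 at 8 and -0.25 at 15 months.

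The signalling groups contained genes of both directions. Among 42 genes of KIT, PI3-kinase and mTORC1 signalling, 7 were called higher and 10 lower with a median of -0.04. With KIT- replicate 1 or 2 left out, 3 were higher each time, and 5 and 7 lower. The lower genes included restraints of the pathway, such as *Ddit4*, *Sesn1* (22.2 and 20.5 RPKM against 7.27 RPKM) and the translation repressor *Eif4ebp1*. They also included parts that carry the signal, the catalytic subunit *Pik3cd* (23.9 and 23.0 RPKM against 3.93 RPKM) and the GTPase *Rhebl1* (15.0 and 13.6 RPKM against 1.83 RPKM). The higher genes included *Kit* itself and *Gatsl3*. In the 40 genes of GDNF and FGF signalling, 7 were lower (5 and 4 without KIT- replicate 1 or 2) and 3 higher (1 each time). The feedback genes *Dusp6* (8.39 and 7.33 RPKM against 0.777 RPKM) and *Socs3* (11.96 and 11.6 RPKM against 3.88 RPKM) were lower, while the FGF receptor *Fgfr3* read 1.75 and 1.51 RPKM against 6.09 RPKM.

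Of 55 receptor tyrosine kinases, 6 were higher and 7 lower, where 7% and 6.85% of all tested genes were. The 6 include *Kit*, the gene of the sorted protein. *Met*, the receptor of hepatocyte growth factor, read 6.54 and 6.78 RPKM in KIT- and 26.9 RPKM in KIT+ cells. The receptors of insulin and IGF went the other way. *Insr* read 2.65 and 2.82 RPKM against 0.554 RPKM and *Igf1r* 145 and 136 RPKM against 61.0 RPKM. The adaptor *Grb10*, an imprinted gene that dampens both receptors, was higher at 76.9 RPKM against 20.9 and 18.99 RPKM. In the Notch pathway 6 of 32 were higher (2 without either KIT- library) and 1 lower, led by *Lfng*, a glycosyltransferase that tunes the receptor, at 1.86 and 2.16 RPKM against 9.71 RPKM. The ligand *Jag2* was 1.97 times the nearer KIT- library and the coactivator *Maml3* was lower. Hedgehog signalling had 2 of 15 genes higher (0 without either KIT- library) and 2 lower (1 each time), and the transducer *Smo* read 10.03 and 10.6 RPKM against 20.9 RPKM, opposite to *Ptch1*. In Wnt signalling (6 higher and 7 lower of 62), TGF-beta and BMP signalling (4 and 8 of 53) and cell adhesion (5 and 9 of 80) the medians were 0.02, -0.03 and -0.04. In these 3 groups 1 to 7 genes were called lower and 2 or 3 higher without KIT- replicate 1 or 2. The receptor *Fzd2* was the extreme of the Wnt genes at 5.77 and 4.56 RPKM against 0.259 RPKM. In adhesion, *Cdh1* (E-cadherin) read 7.36 and 5.72 RPKM against 1.98 RPKM and *Epcam* 36.5 and 27.5 RPKM against 69.9 RPKM.

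Glycolysis genes were more often lower, with 10 of 35 called lower and 4 higher (median -0.33), and 5 and 7 were called lower and 0 and 1 higher without KIT- replicate 1 or 2. *Ldha*, the lactate dehydrogenase of somatic cells, read 11.5 and 11.4 RPKM in KIT- and 1.46 RPKM in KIT+ cells. *Pkm2*, the pyruvate kinase gene, was far more abundant and read 287 and 215 RPKM against 68.8 RPKM. The glucose transporters *Slc2a3* (17.2 and 16.2 RPKM against 3.597 RPKM) and *Slc2a1* (61.8 and 53.4 RPKM against 22.1 RPKM) and *Pdk1*, a kinase that inhibits pyruvate dehydrogenase, were lower too. *Pgam2* had 63 and 51 reads in KIT- and 0 in KIT+ cells, at least 14.1-fold lower. *Gapdh*, *Hk2* and the lactate and pyruvate carrier *Slc16a1* went the other way, at 1.72 to 2.21 times the nearer KIT- library. Of 76 nuclear genes of oxidative phosphorylation, 6 were higher, a share near the 7% of all tested genes, and 1 was lower, with a median of -0.19 at 8 and 0.25 at 15 months. The higher calls were 0 and 3 without KIT- replicate 1 or 2, and scaled to nuclear genes there were 5 higher and 9 lower.

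Ribosomal protein genes were lower in the KIT+ library as a body. Of 80, 76 lay below both KIT- libraries, where 44.9% of all genes did, and 37 were called lower and 0 higher (median -0.89). Their summed level was 15620 and 11560 RPKM in KIT- and 6273 RPKM in KIT+ cells. At 15 months it was 11900 and 10950 RPKM against 10250 and 9379 RPKM, with 2 genes called lower and a median of -0.25, and at 6 days the fractions overlapped. The count of calls depended on KIT- replicate 1, the library with the higher sum, and was 9 without it and 28 without replicate 2. The difference between 8 and 15 months was -0.75 at the median and passed the FDR in 0 of the 80 genes. *Rps4x*, the X-linked copy, read 58.7 and 41.1 RPKM against 6.26 RPKM and was also lower at 15 months. *Rpl23* (288 and 168 RPKM against 51.9 RPKM) and *Rps18* (230 and 149 RPKM against 49.4 RPKM) were called at 8 months only, and their difference between the ages was not called. Ribosomal proteins have many pseudogene copies that can take or lend reads. Of 61 genes that build ribosomes, 12 were lower and 1 higher (median -0.18), among them the nucleolar gene *Nop16*, and 4 and 6 were called lower without KIT- replicate 1 or 2.

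**Figure D5:**
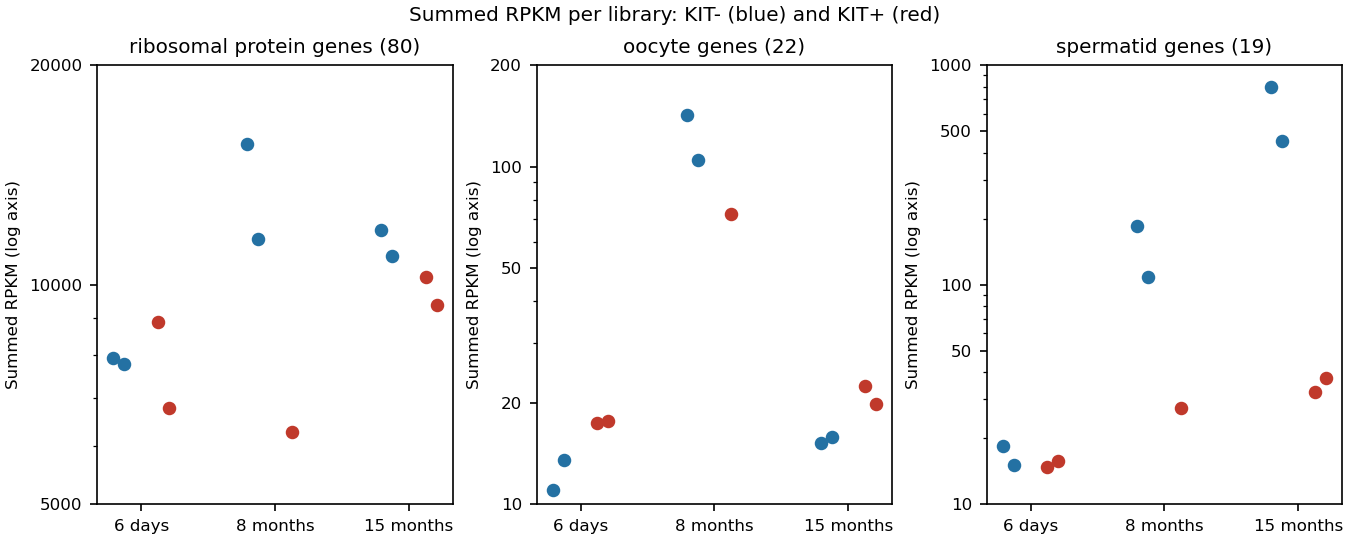
Summed RPKM per library (log axes) of ribosomal protein, oocyte and spermatid genes at 6 days, 8 months and 15 months, with KIT- libraries in blue and KIT+ in red. The 8-month KIT+ library has the lowest ribosomal protein sum of the 11 (6273 RPKM), all 3 libraries of 8 months hold more oocyte transcripts (72.5 to 142 RPKM) than the others, and spermatid transcripts are higher in KIT- than in KIT+ cells at 8 and 15 months.

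Chromatin and RNA regulators changed in particular members. Across all tested genes, 7% were called higher and 6.85% lower. In DNA methylation, 5 of 22 genes were higher (3 without either KIT- library) and 4 lower (1 and 2). The maintenance enzyme *Dnmt1* read 109 and 97.1 RPKM in KIT- and 182 RPKM in KIT+ cells, whereas the cofactor *Dnmt3l* fell from 1.64 and 1.43 RPKM to 0.121 RPKM. Of 37 Polycomb genes, 8 were higher (4 and 5 without KIT- replicate 1 or 2) and 6 lower (2 and 3), with *Suz12*, a core subunit of the complex that writes H3K27 methylation, at 21.0 and 20.4 RPKM against 37.9 RPKM. The methyltransferase *Ezh2* read 4.87 and 4.44 RPKM against 5.63 RPKM without a call. Of 32 histone deacetylases and H3K4 enzymes, 2 were higher and 5 lower, with a median of -0.10. The histone deacetylase *Hdac3* stood out among them at 33.8 and 35.7 RPKM against 116 RPKM, while the deacetylase *Hdac7* was among the lower genes. The piRNA pathway, which silences transposons in the germ line, had 8 of 29 genes lower and 1 higher (median -0.51). The nuclear PIWI protein gene *Piwil4* read 15.6 and 15.1 RPKM against 4.57 RPKM and *Spocd1*, which links piRNAs to DNA methylation, 7.12 and 7.58 RPKM against 0.856 RPKM. *Tdrd5* fell from 14.9 and 15.0 RPKM to 4.44 RPKM. Without KIT- replicate 1 or 2, 3 and 6 were called lower and the median was -0.39 and -0.53. Among 45 tissue-restricted splicing and RNA-binding regulators, 11 were higher and 8 lower. These became 4 higher each time, and 4 and 3 lower, without KIT- replicate 1 or 2. *Mbnl2* read 22.2 and 22.03 RPKM against 2.36 RPKM, and *Msi2* 24.3 and 25.5 RPKM against 8.54 RPKM.

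Noncoding genes were a small share of the calls. Of 695 lincRNA genes, 7 were higher and 18 lower, smaller shares than the 7% and 6.85% of all tested genes. The lincRNA *1110050K14Rik* (chr8:123578782-123606932, minus strand, mm9) lies next to *Foxf1a* on the opposite strand and ran with it, at 6.36 and 6.22 RPKM in KIT- and 0.415 RPKM in KIT+ cells. Among lincRNAs, antisense RNAs and processed transcripts with at least 200 bp of exon, the lincRNA *BC039771* had the widest gap toward KIT-, at 8.03 and 6.85 RPKM against 0.399 RPKM. In the same classes the widest gap toward KIT+ was that of the processed transcript *Gm9581*, at 12.8 and 12.5 RPKM against 45.2 RPKM. Whether strand was used in counting was not given in the sources used here, so reads of overlapping genes on opposite strands may be mixed.

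Some stress and interferon genes were lower in KIT+ cells. Of 36 immediate early and stress genes, 8 were called lower and 0 higher (median -0.56), while their summed level was 917, 920 and 922 RPKM in the 2 KIT- and the KIT+ library. Called were, among others, *Egr1* (8.71 and 9.52 RPKM against 2.36 RPKM) and *Txnip* (116 and 123.1 RPKM against 40.9 RPKM). Without KIT- replicate 1 or 2, 2 and 3 were called lower. After *Gbp2* was seen at the top of the list, 29 tested genes of guanylate-binding proteins and interferon response were looked at together, so this group was chosen after its values were seen. Of these, 10 were lower and 0 higher, and 6 and 9 were lower without KIT- replicate 1 or 2. *Gbp3* read 20.5 and 16.7 RPKM against 1.77 RPKM, the immune checkpoint ligand *Cd274* 53.4 and 43.0 RPKM against 5.52 RPKM, and the interferon regulatory factor *Irf1* 28.8 and 26.7 RPKM against 7.19 RPKM. The macrophage markers summed to 7.70 and 8.15 RPKM in KIT- and 4.996 RPKM in KIT+ cells. Among their defining genes, *Csf1r* and *Ptprc* read at most 0.180 RPKM in the 3 libraries, so most of the sum came from other members. The defining gene *C1qa* is not given here, so these genes alone do not measure macrophage RNA.

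Markers of cells outside the intended gate were present at low to moderate levels. Spermatid transcripts were the most unequal. The 19 listed genes summed to 184 and 108 RPKM in KIT- and 27.3 RPKM in KIT+ cells, and 10 of 18 tested were called lower, such as *Tnp1*, a transition protein, at 34.0 and 17.7 RPKM against 2.60 RPKM. The calls were 4 and 7 without KIT- replicate 1 or 2, and with the 8- and 15-month libraries alone 5. At 15 months the KIT- sums were 797 and 453 RPKM. Of 12 tested genes of pachytene spermatocytes, 2 were lower and 1 higher, and the summed level was 97.4 and 82.1 RPKM against 44.0 RPKM. Among the called KIT- genes, some therefore moved with markers of later germ cells, and the part of such cells in the other results was not tested. Oocyte genes read higher at 8 months than elsewhere. Their 22 genes summed to 142 and 105 RPKM in KIT- and 72.5 RPKM in KIT+ cells, against 11.04 to 22.4 RPKM in the other 8 libraries. *H1foo*, the oocyte linker histone, read 29.9, 20.7 and 12.8 RPKM in the 3 libraries and at most 0.162 RPKM in the other 8. Of 18 tested oocyte genes 8 were called lower in KIT+ cells, and 2 and 7 without KIT- replicate 1 or 2. With a pseudocount of 0.1, with voom or with the 8- and 15-month libraries alone, 0 oocyte genes were called. For genes near 0 in the other 8 libraries, such as *H1foo*, the spread in the fit came largely from libraries near the floor. Such genes could also pass the filter on reads through the 8-month libraries alone, so their calls are weak evidence.

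Somatic markers had few calls, and their highest sum was that of Sertoli cells. Sertoli genes summed to 82.6 and 70.5 RPKM in KIT- cells against 43.8 RPKM, with 1 of 17 called lower. *Sox9*, among their defining genes, read 0.257, 0.204 and 0.0700 RPKM, so most of the sum came from other members. The other defining genes, *Wt1*, *Amh* and *Cldn11*, are not given here, and *Sox9* alone does not measure Sertoli RNA. Leydig genes summed to 10.8, 14.1 and 6.92 RPKM, peritubular myoid genes to 18.0, 23.7 and 10.6 RPKM and endothelial genes to 11.7, 11.5 and 6.54 RPKM in the same order. Red blood cell genes summed to 3.30, 3.69 and 2.64 RPKM. Each somatic sum was thus lowest in the KIT+ library, and the only other gene called among the Sertoli, Leydig, myoid, macrophage, endothelial and red blood cell lists was the endothelial *Cdh5*. Their part in the KIT- genes was not tested.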

How the data were processed

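RNA of FACS-sorted Oct4-GFP+ cells was depleted of rRNA with a Ribo-Zero Gold kit and sequenced as 100 bp paired-end reads on an Illumina HiSeq. According to the study's methods, the authors trimmed reads with Trimmomatic, mapped them to mm9 (TopHat is named for transcript assembly from these reads, while the aligner behind the expression values is not given in the sources used here), and used featureCounts to count them over Ensembl genes. The submitters' processing notes instead name Trim Galore and RSEM, and this difference could not be settled. The authors deposited RPKM, 1 table per library with 39331 rows for 37991 identifiers, of which 667 were listed more than once and collapsed. Exon lengths, names and positions came from GENCODE M1 (mm9), which held 37205 of the identifiers. RPKM times exon length gave whole reads within 0.05 for 98.1% to 98.3% of the values, and these recovered reads gave the depth and the filter. RPKM does not correct for a few genes that take many reads.

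Samples were grouped by their titles. A single model of 6 groups was fitted to log2(RPKM + 1) of the 11 libraries with limma 3.58.1 (trend on the mean, R 4.3.3) for 18412 genes that reached 10 recovered reads in 2 or more libraries. A call required an FDR (Benjamini-Hochberg) up to 0.05 together with a 1.5-fold change, and differences between ages by the FDR alone. All p-values are two-sided, adjusted p-values are from this fit, and fold changes on this scale understate the change of low genes. The gap used the 3 libraries of 8 months and has no test. Levels below 3 reads were taken as the floor, for counting error only. The study names biological replicates from 2 independent experiments but not the animals behind them, so p-values measure the spread between these samples.

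Named were the 20 genes with the largest gap in each direction among those with at least 200 bp of exon and 1 RPKM in 1 of the 3 libraries, the 5 such noncoding genes, up to 8 members with the largest gap and any called member of each gene list, and defining markers. *Prr11*, *Trank1*, *AY036118*, *Ezh2* and *Rara* fall outside this rule and were chosen after their values were seen. A few genes that meet it are not reported here. The members and lists were chosen with earlier results of these data known. Alternatives were a pseudocount of 0.1, no filter, a mean of at least 1 RPKM, median-of-ratios scaling, scaling to nuclear reads, voom, fewer libraries in the fit, a replicate block, the FDR or fold change alone and each library left out, except the single 8-month KIT+ library. The fit was tested on simulated data, where calls at 8 months held more false ones than the FDR allows. Promoter windows came from RefSeq on GRCm38.p6. Tables were made with pandas 2.3.3 and numpy 2.4.6 in Python 3.11.15, and figures with matplotlib 3.10.9.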

Additional observations from a re-analysis of the deposited data

Results flagged for a closer look

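The KIT effect at 8 months, in log2(RPKM + 1), was set against that at 6 days for each gene named, by a contrast of the contrasts in the limma fit. The genes below passed an FDR of 5%, and in each of them the effect was farther from 0 at 8 months. The genes had been chosen for 8 months, and 0 genes passed when any library of 6 days or of 8-month KIT- cells was left out.

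Genes with a more negative effect at 8 months were led by *Gbp2*, with a difference of -3.89 between the ages. It was followed by *Foxf1a* (-2.98), *Gyltl1b* (-2.82), *Rps4x* (-2.81), *Fgd5* (-2.67), *Pygl* (-2.54), *Tmem63c* (-2.52), *Cdkn1b* (-2.37), *Ddit4* (-2.36) and *Ret* (-2.35). The next differences were those of *Nab2* (-2.30), *Rin2* (-2.29), *Six4* (-2.23), *Sdc4* (-2.19), *1110050K14Rik* (-1.99), *Zfp462* (-1.94), *Ptch1* (-1.90), *Mbnl2* (-1.90) and *Glis3* (-1.89). Smaller differences were found for *Ldha* (-1.73), *Rragd* (-1.71), *Pik3cd* (-1.69), *Slc2a3* (-1.44), *Lin28a* (-1.43), *Pdk1* (-1.41), *Msi2* (-1.17) and *Zbtb16* (-1.11).

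Genes with a more positive effect at 8 months were led by *Lfng*, with 2.22. It was followed by *Ccnd1* (1.93), *Rrm2* (1.91), *Ccne2* (1.91), *Mki67* (1.87), *Hs6st2* (1.501), *Hdac3* (1.41), *Top2a* (1.39), *Sorl1* (1.36) and *Tpx2* (1.26). Smaller differences were found for *Plk1* (1.18), *Tex11* (1.16), *Uhrf1* (1.09), *Mcm2* (1.08), *Mcm6* (0.92) and *Suz12* (0.81).

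As an example, the log2 fold change of *Mki67* was 1.96 at 8 months and 0.09 at 6 days.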

How the results depend on the processing

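Of the choices tried for the 8-month comparison, the ones that set the spread mattered most. The 3 libraries of 8 months alone gave 0 calls in each direction, and so did a replicate block within each age, where 1788 and 2193 genes had p-values up to 0.05 before adjustment. Deviations of same-numbered KIT- and KIT+ libraries correlated at 0.05 at 6 days and -0.06 at 15 months, so no shared shift was seen there. This cannot show that the samples are unpaired. Whether same-numbered libraries share a sort was not stated, and the lone KIT+ library of 8 months allows no such check. The 8- and 15-month libraries alone gave 720 genes toward KIT+ and 719 toward KIT-, and voom on the recovered reads 789 and 461. The fold change alone gave 2240 and 2820. With each library left out in turn, 496 to 1618 genes were higher in KIT+ and 484 to 1815 in KIT- cells. The other settings stayed within 1.5 times of the reported counts. Voom called 10 genes of undifferentiated spermatogonia lower and 0 spermatid and 0 oocyte genes.

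The 18 genes whose KIT effect differed between 8 and 15 months became 1 with a pseudocount of 0.1 and 0 with a mean of at least 1 RPKM, and 0 to 206 when libraries were left out, the highest without a 15-month KIT- library. The 218 genes that differed between 8 months and 6 days became 470 with a mean of at least 1 RPKM and 0 to 826 when libraries were left out, again highest without a 15-month KIT- library. The counts of the 100 leading genes that separated again at the other ages stayed within 1.5 times under all settings run. Of the genes named in the text, the macrophage marker *Ptprc* changed sign, to 0.15 with voom, to 0.018 with the replicate block and to 0.018 without 8-month KIT- replicate 2 (from -0.026 to 0.018 with single libraries left out), at levels of no more than 0.0310 RPKM. No call changed its direction. The depth of the 8-month libraries and the lone KIT+ library limit all calls of low genes.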

Other observations

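Several other gene groups held genes called in each direction at 8 months, where 7% of all tested genes were called higher and 6.85% lower. Of 35 imprinted genes, which are read from the copy of a single parent, 5 were higher and 5 lower in KIT+ cells (4 and 2 without either KIT- library). *Ascl2*, a helix-loop-helix factor, read 5.73 and 5.67 RPKM in KIT- and 20.5 RPKM in KIT+ cells, and *Peg10*, a gene derived from a retrotransposon, 11.7 and 11.98 RPKM against 2.50 RPKM. Of 24 hypoxia targets, 5 were higher (1 without either KIT- library) and 6 lower (3 and 4 without KIT- replicate 1 or 2). Here *Vhl*, which marks hypoxia factors for degradation, read 9.54 and 8.49 RPKM against 23.8 RPKM and *Epas1*, itself a hypoxia factor, 3.76 and 4.55 RPKM against 1.58 RPKM.

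Of 42 genes best known from neurons, 4 were higher and 3 lower, shares near those of all tested genes. *Lingo1* read 0.604 and 0.460 RPKM against 2.66 RPKM and the synapsin gene *Syn2* 4.42 and 5.07 RPKM against 1.73 RPKM. Of 50 genes of cilia and motors, 6 were lower (3 without either KIT- library) and 1 higher, among the former the ciliary gene *Hydin* at 2.62 and 2.69 RPKM against 0.487 RPKM. The X-linked homeobox gene *Rhox10* was the single called gene of 8 in its family, at 7.13 and 6.33 RPKM against 1.39 RPKM. Of 778 tested X-linked genes, 68 were higher and 54 lower, again near the shares over all genes.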
